A study of Mus musculus with 3 samples.

Results

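Pericytes were taken as the cells of the mouse L3 and L4 dorsal root ganglia (DRGs) that carried at least 3 of 7 pericyte genes (Rgs5, Kcnj8, Abcc9, Vtn, Notch3, Steap4 and Pdgfrb) and lacked the transcripts of neighbouring cell types. A member had no Myh11 transcript and at most 2 of Acta2 (smooth muscle), at most 1 of Pecam1 and Cdh5 together (endothelium), none of Lum or Pdgfra (fibroblasts), at most 1 of Mag and Prx together (myelinating Schwann cells) and at most 1 of Snap25 and Rbfox3 together (neurons). Of 11937 barcodes, 9662 held at least 500 genes and at most 20% mitochondrial counts, and 102 of these were pericytes. Since the members were chosen on measured values, the levels of these genes describe the choice and are not results.

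The 3 libraries were single cell suspensions from naïve (untreated) mice and from mice 7 or 14 days after a spared nerve injury (SNI) made on both sides, in which branches of the sciatic nerve are cut and the sural branch is left intact. Each library pooled 8 DRGs of 2 male C57BL/6J mice aged 13 weeks, which were perfused before the ganglia were dissociated with collagenase, dispase and trituration. The naïve mice had no surgery. Transcripts were counted as unique molecular identifiers (UMIs) with the 10x Genomics 3′ chemistry.

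With 1 library per condition, the injury, the pair of mice and the library cannot be told apart, and no test between conditions was possible. All intervals given are exact 95% intervals of the counts and cover counting error only. The libraries held 23107376, 22343246 and 36550911 UMIs in the order naïve, day 7 and day 14, the order used throughout, and shared 1 to 6 barcode sequences pairwise, with 0 shared among pericytes.

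Pericytes sit within the basement membrane of capillaries and small venules, where they contact the endothelial cells they support. Endothelial PDGF-B acts on their receptor PDGFRβ to recruit and keep them, Notch3 signalling sets mural cell identity, and an ATP-sensitive potassium channel of Kir6.1 (Kcnj8) and SUR2 (Abcc9) links their metabolism to membrane potential. In sensory ganglia, whose capillaries are more permeable than those of the brain, pericytes form part of the vessel wall around neuronal somas and satellite glial cells (SGCs).

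The naïve library held 30 pericytes of 3152 kept cells, or 0.952% (0.643 to 1.36). The day 7 library held 27 of 2682, or 1.01% (0.664 to 1.46), and the day 14 library 45 of 3828, or 1.18% (0.859 to 1.57). These intervals overlapped. The order of the shares depended on which cells were kept. With every cell thinned to 2000 UMIs, which leaves out shallower cells, the members were 10 of 2330 cells, 19 of 2298 and 46 of 3388, or 0.429% (0.206 to 0.788), 0.827% (0.499 to 1.29) and 1.36% (0.996 to 1.81), and the naïve and day 14 intervals did not overlap. With at least 1000 genes and at most 10% mitochondrial counts per cell the order was the opposite, at 1.56% (0.970 to 2.38), 1.39% (0.777 to 2.27) and 0.880% (0.456 to 1.53). No direction of the share is therefore given. Of the pericytes, smooth muscle cells and endothelial cells combined, pericytes made up 8.15%, 9.85% and 10.5%, and there were 0.435, 0.482 and 0.549 pericytes for each vascular smooth muscle cell. Dissociation sets how many cells of a type are recovered, so these shares describe the suspensions rather than the ganglia.

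Pericytes were shallow cells. Their median was 1736, 2264 and 2440 UMIs per cell, against 4512, 6730.5 and 6122.5 in vascular smooth muscle cells and 4339, 5152 and 5767 in endothelial cells. Summed over the members, each library gave 64446, 61085 and 116704 UMIs, so that a single UMI stood for 15.5, 16.4 and 8.57 CPM (UMIs of a gene per 1000000 UMIs of the summed cells), the unit of level used below. The median mitochondrial share of a pericyte was 7.32%, 9.58% and 12.5%, higher in each injured library than in the naïve library, and its part in the differences between conditions was not tested.

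Most members passed the rule with room to spare: 46 carried all 7 genes, 31 carried 6 and 16 carried 5, while 2 carried 4 and 7 carried the 3 that were needed. Just outside, 17 cells met every other condition with 2 of the genes. Too few of the 7 genes was the sole failure of 3060 cells. Among the conditions that excluded other cell types, Myh11, the smooth muscle myosin heavy chain, removed the most: 95 cells failed it alone, 62 of them with a single Myh11 UMI. A further 43 cells failed only on Lum or Pdgfra. Of the members, 90 had no Acta2 UMI, 7 had 1 and 5 had 2.

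Clustering of all kept cells placed 98 of the 102 pericytes in a single cluster of 206 cells led by pericyte genes. The other 108 cells of that cluster were shut out mainly by Myh11, of which they had a median of 1 UMI and 852, 594 and 584 CPM, against 4065, 4215 and 4072 CPM in vascular smooth muscle. Among endothelial cells, which should lack it, 1.49%, 1.05% and 4.0% carried a Myh11 UMI. These cluster neighbours held Rgs5 at 8964, 7072 and 8351 CPM, above the members' 6688, 6663 and 6461, and Kcnj8 in 57.1%, 60.9% and 80.7% of cells, against 60%, 66.7% and 60% of members. The boundary drawn at Myh11 therefore cut through a group with like levels of pericyte genes, and values of the whole cluster are given beside the results that change with it.

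The 4 members outside that cluster lay near other cell types. A naïve member in an unnamed cluster had 6223 UMIs with 67 of Dcn, 17 of Col1a1 and none of Rgs5, and another naïve member with 12 Rgs5 UMIs lay in the smooth muscle cluster. A day 14 member among satellite glia had 10552 UMIs with 166 of Fabp7 and 236 of Apoe, and a day 14 member among fibroblasts had 273 of Apod and 68 of Dcn. These last 2 cells also had no Rgs5 UMI. Scrublet, a doublet caller, marked 0 of the pericytes and 28, 24 and 20 of the kept cells of each library.

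The genes of the rule were found at close levels in the 3 libraries. Rgs5, a regulator of G protein signalling, gave 431, 407 and 754 UMIs (6688, 6663 and 6461 CPM), and 96.7%, 100% and 91.1% of members carried it, against 7.06%, 2.62% and 7.67% of endothelial cells and 1.12%, 1.67% and 1.81% of cells with myelin genes at median depths of 2632, 3646.5 and 3741 UMIs. Both comparison groups were chosen to carry fewer than 3 of the 7 rule genes, so their shares are low in part by definition. The receptor Notch3 gave 1552, 2390 and 2314 CPM, the matrix protein vitronectin (Vtn) 1831, 2341 and 1397 CPM and Pdgfrb 1381, 1801 and 1534 CPM. Single members held up to 47, 39 and 48 UMIs of Rgs5, with medians of 11, 10 and 16. Among members thinned to 1000 UMIs, the Spearman correlation of Rgs5 with Notch3 was 0.15 over 29 naïve, -0.26 over 25 day 7 and 0.43 over 44 day 14 cells, a description of sparse counts that share a library. None of the 7 rule genes differed 2-fold between a naïve and an injured library.

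Both subunits of the ATP-sensitive potassium channel are genes of the rule, so their levels in the members follow from the choice of cells. Abcc9 gave 73, 73 and 112 UMIs (1133, 1195 and 960 CPM) in pericytes and 19.4, 34.0 and 32.3 CPM in vascular smooth muscle. Kcnj8 gave 29, 32 and 52 UMIs (450, 524 and 446 CPM), against 9.69, 13.1 and 12.1 CPM in smooth muscle, where 4.35%, 5.36% and 6.10% of the deeper cells carried it. Unlike Rgs5 and Notch3, which smooth muscle also held at 4530, 4774 and 4569 CPM and at 1147, 1440 and 1771 CPM, this pair was low there, though Kcnj8 was higher in smooth muscle than in endothelial cells (at most 0.603 CPM, in 0 to 0.372% of cells). The genes are neighbours on the minus strand of chromosome 6 (mm10, Kcnj8 at chr6:142564837-142571614 and Abcc9 at chr6:142587862-142702315), with 16247 bases between them.

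**Figure D1:**
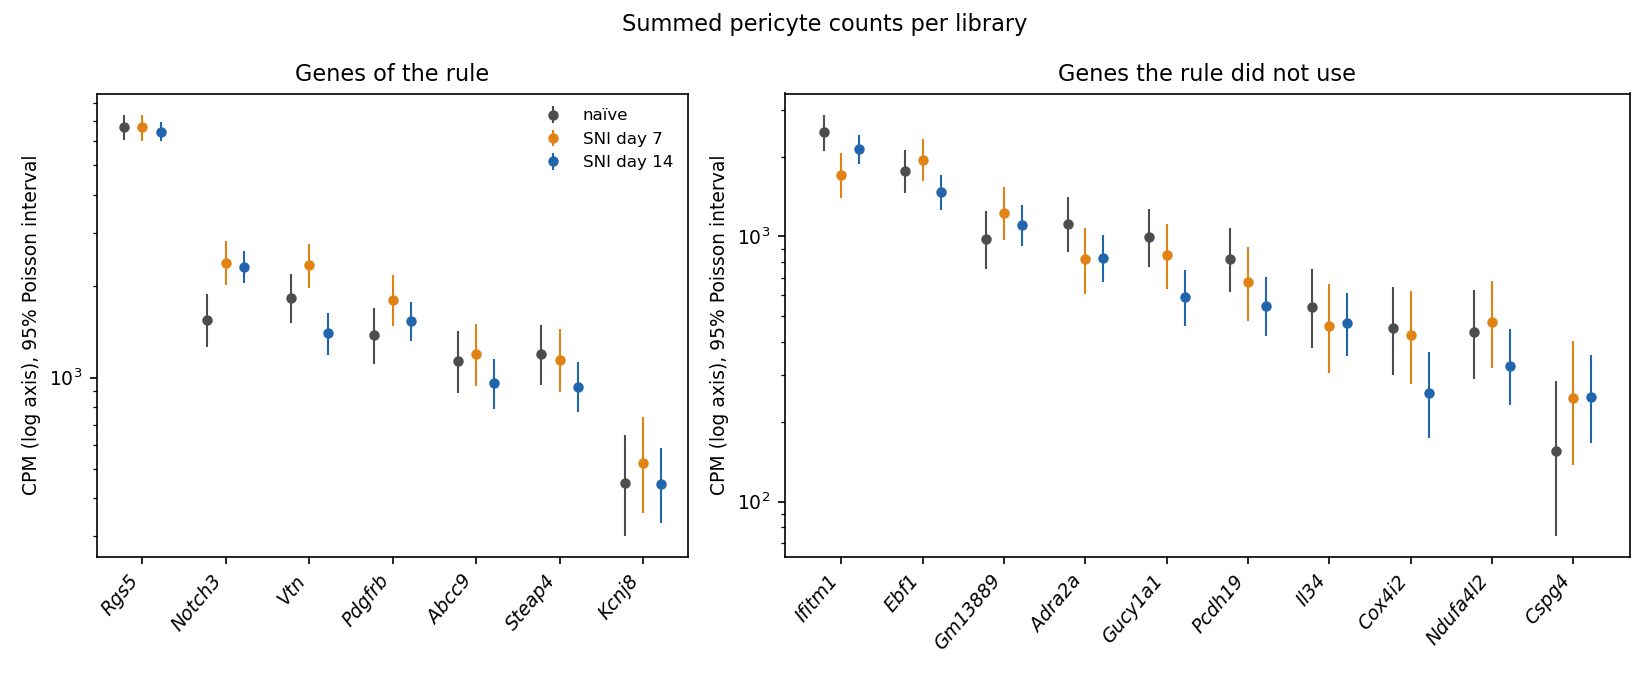
Level of 17 genes in the summed pericyte counts of the naïve, day 7 and day 14 libraries, in CPM on a log axis, with exact 95% Poisson intervals of the counts as bars. The left panel holds the genes that chose the cells and the right panel genes that did not. Rgs5 sits between 6461 and 6688 CPM in all 3 libraries, and Ifitm1 between 1703 and 2467 CPM.

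Of 1618 genes with at least 30 UMIs over the pericytes of all libraries, 24.3% were at least 2-fold higher than in all other kept cells in every library. In a list of 39 pericyte genes that the rule did not use, 36 had a UMI, 30 passed this minimum and 27 were higher. All ratios below are log2 ratios of CPM with 5 CPM added to both sides, and those between cell types follow from the choice of cells, so they are descriptions.

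The gene that stood farthest above the other cells was Ifitm1, an interferon-induced transmembrane protein, with 159, 104 and 249 UMIs (2467, 1703 and 2134 CPM, against 11.6, 8.55 and 15.8 CPM in other cells and a log2 ratio of 6.68 to 7.22). It lies at chr7:140967221-140969825 on the plus strand. In vascular smooth muscle it was at 87.3, 49.7 and 46.4 CPM and in endothelial cells at 4.82, 2.79 and 7.85 CPM, which set pericytes apart from both. Interleukin 34 (Il34), a ligand of the macrophage receptor CSF1R, gave 35, 28 and 55 UMIs (543, 458 and 471 CPM), with 165, 149 and 115 CPM in smooth muscle and at most 1.24 CPM in endothelial cells.

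Receptors for vasoactive signals formed a second group. Adra2a, the α2A-adrenergic receptor, gave 72, 50 and 97 UMIs (1117, 819 and 831 CPM), against 16.2, 34.0 and 14.1 CPM in smooth muscle and 0 UMIs in endothelial cells. Agtr1a, encoding the type 1 angiotensin II receptor, gave 29, 39 and 86 UMIs (450, 638 and 737 CPM), and smooth muscle held 25.9, 47.0 and 32.3 CPM of it. The endothelin receptor Ednra (543, 426 and 334 CPM) and the soluble guanylate cyclase subunit Gucy1a1 (993, 851 and 591 CPM) were also in smooth muscle, at 404, 355 and 325 CPM and at 1167, 1199 and 1135 CPM. Of 52 vasoactive signalling genes, 40 had a UMI and 17 were compared. In every library 8 of the 17 were at least 2-fold higher in pericytes than in smooth muscle, against 13.2% of all genes compared. The 8 include Kcnj8 and Abcc9, genes of the rule that chose the cells.

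Contractile genes separated the 2 mural types the other way. Of 26 listed, 22 had a UMI in pericytes and 16 were compared. Of these, 10 were at least 2-fold lower than in smooth muscle in every library, against 3.21% of all genes, and 0 were higher. Tagln (transgelin) gave 8, 8 and 16 UMIs (124, 131 and 137 CPM), against 6227, 5135 and 5025 CPM in smooth muscle, and Cnn1 (calponin) and Pln (phospholamban) had 0 UMIs in every pericyte. A count of 0 allows up to 46.6, 49.1 and 25.7 CPM, 3 counts in each library, and smooth muscle held Pln at 1305, 1301 and 1417 CPM. The regulatory myosin light chain Myl9 was kept at 1365, 1359 and 1371 CPM, against 5099, 4218 and 4696 CPM, and desmin (Des), an intermediate filament protein, at 435, 589 and 454 CPM, against 278, 389 and 299 CPM. Low Myh11 and Acta2 were conditions of the rule, and their absence is no part of these counts.

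Pericytes share a basement membrane with the endothelium, and the members carried genes of it. Basement membrane collagen Col4a1 gave 81, 74 and 99 UMIs (1257, 1211 and 848 CPM, against 498, 512 and 519 in smooth muscle), and the laminin γ3 chain gene Lamc3 gave 38, 22 and 51 UMIs (590, 360 and 437 CPM, against 38.8, 44.4 and 36.3). The fibrillar collagen Col3a1 was at 3026, 1915 and 1457 CPM, above the 168, 118 and 30.3 CPM of smooth muscle and below the 4586, 6005 and 4593 CPM of fibroblasts. Olfml3, a secreted olfactomedin-domain protein, gave 19, 13 and 25 UMIs in pericytes and 0, 0 and 1 in the deeper smooth muscle cells, and was found in fibroblasts at 478, 322 and 295 CPM. Of 27 basement membrane genes 16 were compared. In every library 6 of them were at least 2-fold higher than in smooth muscle and 1 lower, beside 13.2% and 3.21% of all genes. The 6 include Vtn, a gene of the rule. Between conditions 0 of the 16 differed 2-fold at either time. Of all genes 6.98% were higher and 5.62% lower at day 7, and 6.18% and 4.45% at day 14.

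Markers of other cells were low but not absent. Of 14 endothelial markers 9 had a UMI. The receptor gene Kdr and Egfl7 had none, while Emcn gave 23, 11 and 30 UMIs (357, 180 and 257 CPM, against 1065, 946 and 904 in endothelial cells and 9.69, 7.84 and 6.06 in smooth muscle). Pdgfb, the ligand of PDGFRβ, was at 349, 437 and 545 CPM in endothelial cells and at 0, 0 and 1 UMI in pericytes. The macrophage list summed to 6, 4 and 3 UMIs and the neuron list to 4, 16 and 27 UMIs. Satellite glia markers summed to 2638, 2276 and 7909 CPM and fibroblast markers to 4034, 1441 and 5475 CPM. Much of this came from the cells outside the pericyte cluster named above. Of 12 transporters known from pericytes of the central nervous system 9 had a UMI: Slc38a11 gave 23, 20 and 22, while the GABA transporter gene Slc6a13 gave 0, 0 and 1, and Atp13a5, from the list of pericyte genes, gave 0.

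**Figure D2:**
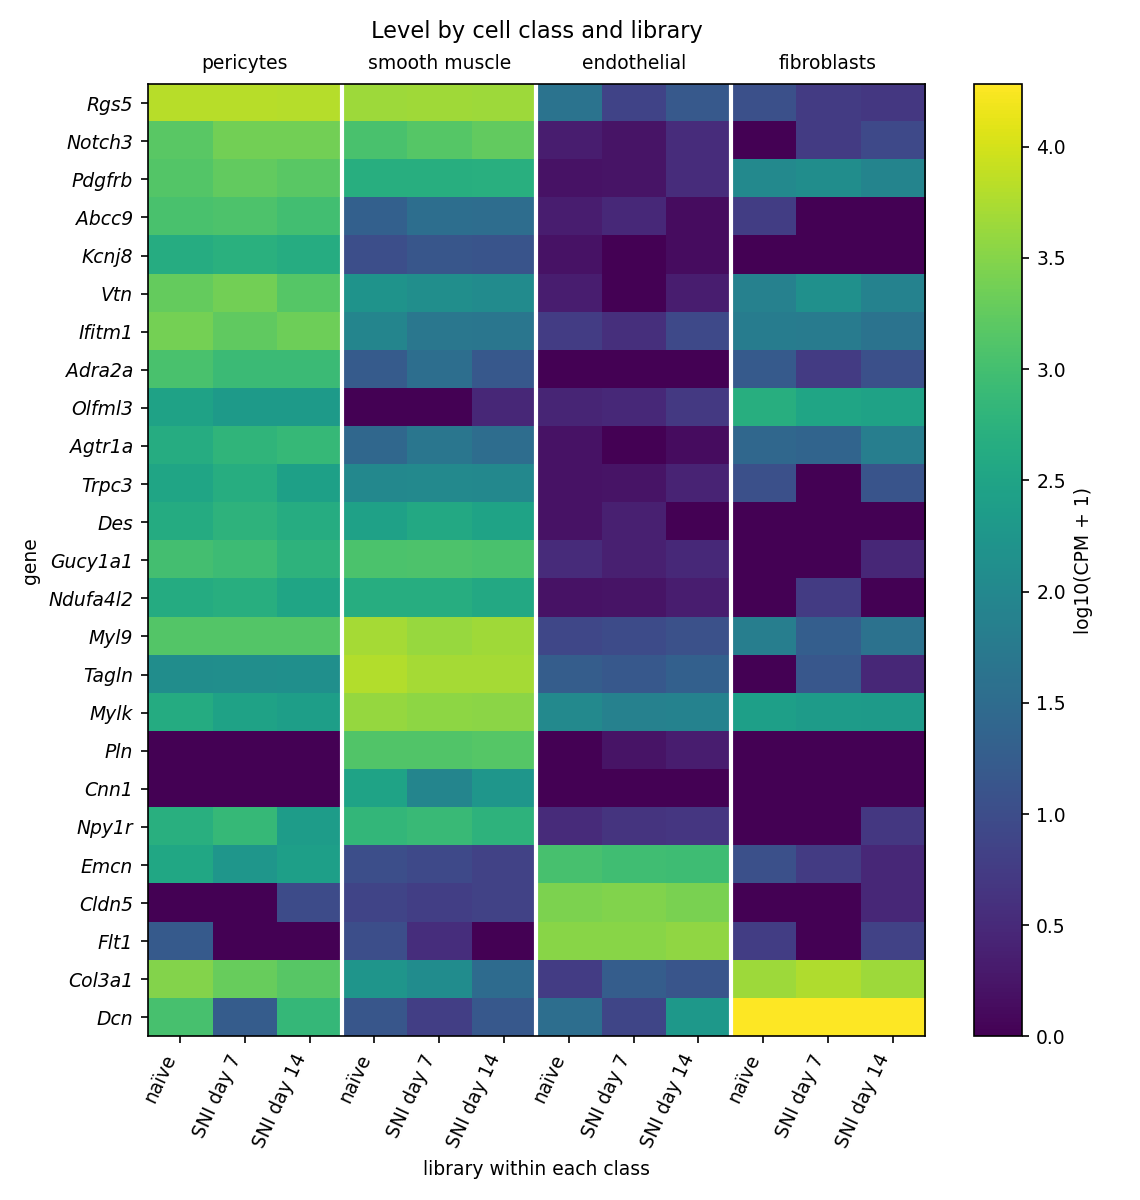
Level of 25 genes, as log10 of CPM plus 1 by colour, in pericytes, vascular smooth muscle, endothelial cells and fibroblasts (columns, 3 libraries each). Kcnj8, Abcc9, Ifitm1 and Adra2a are bright in pericytes, Tagln, Mylk, Pln and Cnn1 in smooth muscle. Of these, Kcnj8 and Abcc9 are genes of the rule. Pericyte Pln and Cnn1 are at 0 in all 3 libraries.

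Between conditions, 113 of the 1618 genes (6.98%) were at least 2-fold higher and 91 (5.62%) lower at day 7 than in the naïve library, and 100 (6.18%) were higher and 72 (4.45%) lower at day 14. The median log2 ratio over all genes was 0.02 at day 7 and -0.03 at day 14. These are differences between pools of 27 to 45 cells and carry no error between animals. At both times 54 genes were higher and 21 lower, but both comparisons use the same naïve pericytes, so their overlap is no repeat of either. Without the 4 members outside the pericyte cluster 1442 genes were compared. Of these, 91 were higher and 84 lower at day 7, and 87 and 55 at day 14.

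The genes that stood farthest above the naïve pericytes belonged to the circadian clock. Dbp, Tef and Hlf encode the PAR-domain activators that bind D-box elements and cycle with the clock, Per3 encodes a period protein, and Nr1d1 and Nr1d2 encode the REV-ERB repressors of Arntl (Bmal1). Of 18 clock genes listed, 17 had a UMI in pericytes and 6 reached the minimum for comparison, all 6 at least 2-fold higher at both times, beside 6.98% and 6.18% of all genes. A count over genes that passed through their higher libraries is bound to be uneven. The sum of all 18, which uses no minimum, was 745 CPM (549 to 988) in naïve pericytes, 2325 (1958 to 2740) at day 7 and 2519 (2239 to 2824) at day 14. The naïve interval overlapped neither of the others. The same 6 genes gave 23, 110 and 241 of the 48, 142 and 294 UMIs of this sum, so it is no separate support. The list was also chosen with earlier results of these data known.

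Dbp (chr7:45705088-45710203, plus strand) gave 1, 25 and 50 UMIs, or 15.5, 409 and 428 CPM. The log2 ratio over naïve was 4.34 at day 7 (2.11 to 10.08, the interval of the ratio with nothing added) and 4.4 at day 14 (2.24 to 10.12). It was found in 3.33% of naïve members and in 37.0% and 55.6% of members at days 7 and 14, while cells with myelin genes carried it in 8.46%, 19.9% and 23.8%. The counts were spread over cells, with at most 5 UMIs in any of them.

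Per3 gave 1, 15 and 34 UMIs (log2 ratios 3.61, 1.28 to 9.38, and 3.85, 1.66 to 9.58). Tef gave 2, 18 and 30 UMIs (3.06, 1.18 to 6.40, and 2.86, 1.07 to 6.16), and Hlf gave 3, 16 and 48 (2.37, 0.69 to 4.91, and 3.01, 1.51 to 5.47). All 4 genes stood on 1 to 3 naïve UMIs, so the size of each ratio is loosely known although its interval lay above 0. Nr1d1 gave 9, 19 and 40 UMIs (1.13, -0.06 to 2.48, and 1.27, 0.23 to 2.52) and Nr1d2 gave 7, 17 and 39 (1.32, 0.01 to 2.87, and 1.58, 0.44 to 3.03).

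Arntl, the activator that works in antiphase to these genes, went the other way. It gave 7 UMIs in 7 naïve pericytes and 0 in both injured libraries. The naïve level was 2.21-fold above a floor of 3 counts at day 7 and 4.23-fold above that floor at day 14. Counting error in the 7 UMIs is left out of these folds, so they are not lower bounds. The other clock genes had few counts: Per1 gave 1, 8 and 11 UMIs, Per2 3, 4 and 8, Clock 4, 5 and 7, Cry1 2, 1 and 7, and Npas2 1, 0 and 0.

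The clock difference was not particular to pericytes in direction. The same 18 genes summed to 646, 823 and 1234 CPM in vascular smooth muscle, to 1637, 2082 and 2059 CPM in endothelial cells, to 920, 1035 and 1392 CPM in fibroblasts and to 680, 943 and 995 CPM in cells with myelin genes, each lowest in the naïve library. Dbp alone had log2 ratios of 1.5 and 2.62 in smooth muscle and 0.66 and 1.10 in endothelial cells. Among the 108 cluster neighbours of the pericytes the sum was 1227, 1476 and 2839 CPM, so the step at day 7 was smaller there. Over the whole cluster Dbp had 7, 40 and 131 UMIs and log2 ratios of 2.37 and 2.95. Whether the size of the difference varied between these cell types was not tested. The mice lived on a light/dark cycle, and the hour at which each library was collected is not given in the sources used here, so hour and condition cannot be told apart.

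Promoter sequence was read for the clock genes because their levels were higher together. Windows of 250 bases before each RefSeq start site (GRCm38.p6, the assembly of mm10) were searched on both strands for the E-box CACGTG, bound by CLOCK and BMAL1, and for the D-box TTATGNAA, bound by the PAR-domain proteins. Over 32851 windows of all genes 6.02% held the E-box and 3.07% the D-box. All 6 clock genes had an entry: Tef held an E-box and Per3 a D-box, the latter in 2 copies that begin 205 and 158 bases before the start. A match of letters describes the window and is not evidence of binding, and the other 4 genes lack only these letters in this window. The Per3 window (chr4:151044666-151044915, minus strand, D-boxes in capitals) and the window of the second Tef start (chr15:81811164-81811413, plus strand, E-box in capitals) read, 5′ to 3′:
Per3: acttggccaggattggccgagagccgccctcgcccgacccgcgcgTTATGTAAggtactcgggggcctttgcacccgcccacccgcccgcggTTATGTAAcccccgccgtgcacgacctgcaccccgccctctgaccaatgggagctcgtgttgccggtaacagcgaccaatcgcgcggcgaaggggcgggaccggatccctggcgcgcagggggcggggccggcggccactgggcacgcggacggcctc
Tef: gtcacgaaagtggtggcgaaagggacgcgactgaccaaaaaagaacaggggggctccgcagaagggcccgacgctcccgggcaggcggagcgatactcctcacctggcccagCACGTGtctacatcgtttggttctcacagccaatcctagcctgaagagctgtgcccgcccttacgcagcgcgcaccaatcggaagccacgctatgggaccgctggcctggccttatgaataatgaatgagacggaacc

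Heat-shock genes, split from a wider list by protein class after values were seen, stood on the lower side. They encode chaperones that refold damaged protein and are induced within minutes to hours of stress. The sum of 14 heat-shock genes was 5974 CPM (5392 to 6602) in naïve pericytes, 2308 (1943 to 2722) at day 7 and 2588 (2304 to 2897) at day 14. All 14 had a UMI, 8 were compared, and 6 of the 8 were at least 2-fold lower at each time, beside 5.62% and 4.45% of all genes, while 0 were higher. Of these, 5 were lower at both times, while Hspa1a (17, 7 and 29 UMIs) was lower at day 7 only and Fkbp4, an immunophilin co-chaperone (14, 17 and 12 UMIs), at day 14 only. Hspa8 (chr9:40800984-40810087, plus strand), the constitutive HSC70 chaperone, gave 134, 43 and 53 UMIs, or 2079, 704 and 454 CPM, with log2 ratios of -1.56 (-2.09 to -1.06) and -2.18 (-2.68 to -1.73).

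The cytosolic chaperone gene Hsp90aa1 gave 52, 16 and 39 UMIs (-1.60, -2.53 to -0.79, and -1.26, -1.91 to -0.64), and its J-domain co-chaperone Dnaja1 gave 42, 15 and 31 (-1.39, -2.37 to -0.53, and -1.28, -2.01 to -0.59). The small heat-shock protein gene Hspb1 gave 31, 4 and 27 UMIs (-2.79, -4.84 to -1.38, and -1.04, -1.86 to -0.26). The lowest point of Hspb1 was at day 7, and 7 of its naïve UMIs lay in members outside the pericyte cluster, without which the day 14 ratio was -0.68. Inducible Hspa1b gave 44, 11 and 36 UMIs (-1.89 and -1.13), but it is nearly identical to Hspa1a, so how counts were divided between the pair is uncertain.

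Other cell types had the same direction. The heat-shock sum was 4753, 3165 and 2867 CPM in smooth muscle, 5156, 3009 and 2366 CPM in endothelial cells, 3574, 2092 and 1901 CPM in fibroblasts and 6733, 5027 and 4809 CPM in cells with myelin genes. Hspa8 had log2 ratios of -0.50 and -0.91 in smooth muscle and -0.68 and -1.34 in endothelial cells. In the cluster neighbours the sum was 5726, 2917 and 2350 CPM, close to the members. The naïve library thus held the highest sum in each of these cell groups, and the part of the mitochondrial share in the difference was not tested.

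Promoters of 11 of the 14 heat-shock genes had an entry, and 8 of these held the heat-shock factor motif GAANNTTC or TTCNNGAA, which 12.8% of all windows held. The 8 counts genes, with up to 3 windows each, while the share counts windows. Windows of Hspe1 and Hspd1 overlap and hold the same motifs, and those of Hspa1a and Hspa1b are nearly identical. The 8 are therefore not separate promoters, and enrichment was not tested. The window before Hspb1 (chr5:135887669-135887918, plus strand) is shown because this gene had the lowest day 7 ratio of the group. Its 2 motifs, in capitals, begin 117 and 97 bases before the start:
Hspb1: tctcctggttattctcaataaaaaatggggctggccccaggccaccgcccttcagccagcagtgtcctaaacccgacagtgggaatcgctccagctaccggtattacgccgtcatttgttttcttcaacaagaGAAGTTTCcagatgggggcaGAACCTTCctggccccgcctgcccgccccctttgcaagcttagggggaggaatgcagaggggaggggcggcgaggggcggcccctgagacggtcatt

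**Figure D3:**
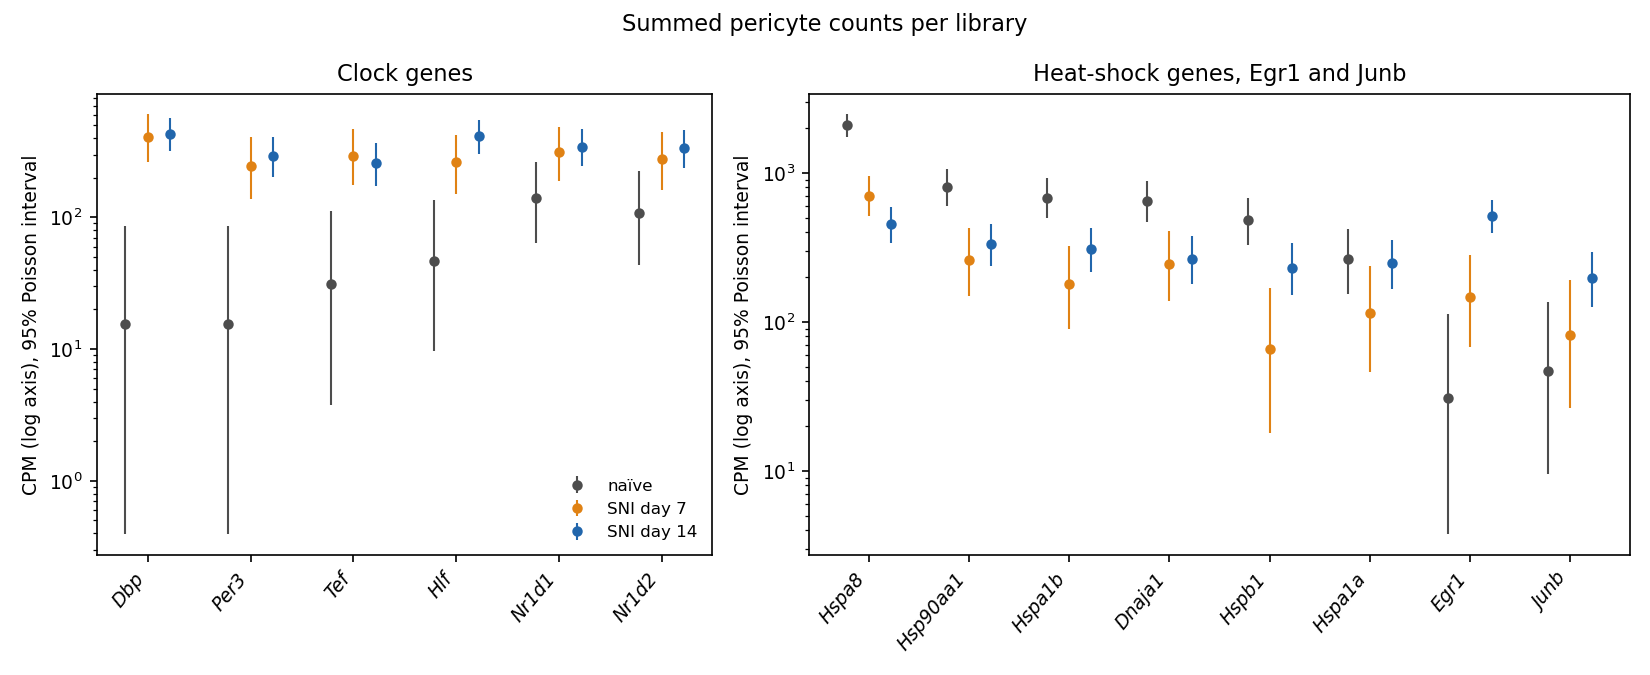
Level of 6 clock genes (left) and of 6 heat-shock genes with Egr1 and Junb (right) in the summed pericyte counts of each library, in CPM on a log axis, with exact 95% Poisson intervals as bars. The naïve points of the clock genes are the lowest, with Dbp at 15.5, 409 and 428 CPM, and the naïve points of the heat-shock genes are the highest, with Hspa8 at 2079, 704 and 454 CPM.

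**Figure D4:**
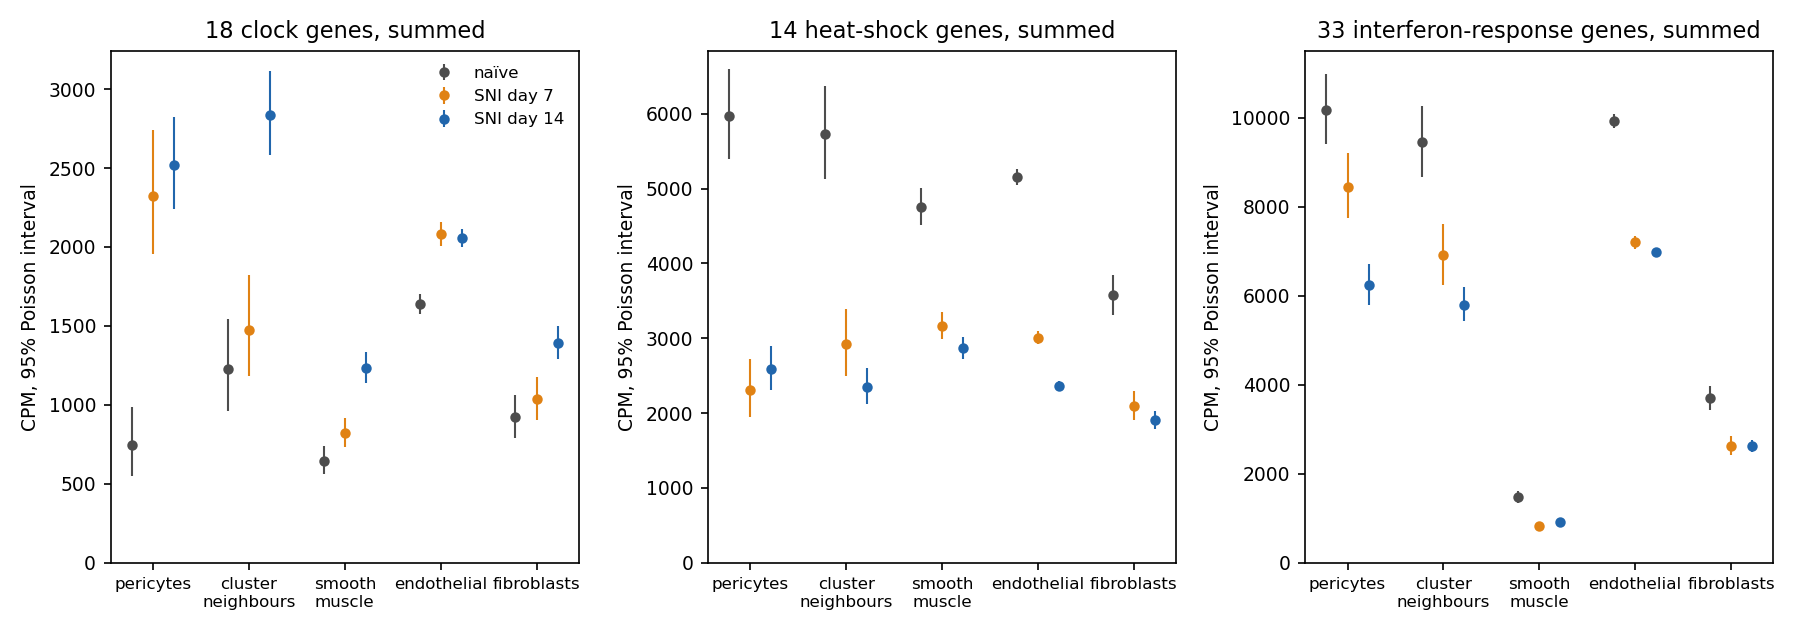
Summed level in CPM, from 0, of 18 clock, 14 heat-shock and 33 interferon-response genes in pericytes, in the other cells of their cluster (cluster neighbours) and in 3 further cell types, by library, with exact 95% Poisson intervals as bars. Clock sums are lowest and heat-shock sums highest in the naïve library in every cell group, and pericyte clock sums run from 745 to 2519 CPM.

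Immediate early genes were the other part of the list split after values were seen. A contrast in direction with the heat-shock genes is therefore no result. Egr1, a zinc finger transcription factor induced by growth factors and activity, gave 2, 9 and 60 UMIs (31.0, 147 and 514 CPM), with log2 ratios of 2.08 (-0.03 to 5.5) at day 7 and 3.85 (2.13 to 7.13) at day 14. It was also higher in smooth muscle, at 1.94 and 2.25, and in the whole cluster, at 1.96 and 2.89. Junb, a subunit of the AP-1 factor, gave 3, 5 and 23 UMIs (0.75 and 1.97). The 26 immediate early genes summed to 1878 CPM (1558 to 2243), 2161 (1808 to 2563) and 2982 (2677 to 3312). The naïve and day 7 intervals overlapped. Of 7 genes compared, 2 were higher and 1 lower at day 7, beside 6.98% and 5.62% of all genes. At day 14, 2 were higher and 0 lower, beside 6.18% and 4.45%.

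A pair of Notch signalling genes was higher in the injured libraries among the members. Hes1, a repressor that Notch activates, gave 5, 19 and 35 UMIs, with log2 ratios of 1.94 (0.53 to 3.78) and 1.88 (0.59 to 3.66), and Notch1 gave 5, 14 and 22 (1.5, 0.01 to 3.39, and 1.23, -0.16 to 3.04). Over the cluster the ratios were 0.96 and 1.39 for Hes1 and 0.48 and 0.82 for Notch1. At day 14, 7 of the 22 Notch1 UMIs were in 1 cell. Without the members outside the cluster the day 14 ratio of Notch1 was 0.69, below 2-fold. Heyl, another Notch target, gave 38, 22 and 71 UMIs (-0.70 and 0.04) and did not follow. Of 19 genes of the pathway 17 had a UMI, 7 were compared, and Hes1 and Notch1 were the 2 higher at each time, beside 6.98% and 6.18% of all genes. The list summed to 3321, 4338 and 4576 CPM in the members, lowest when naïve. Of its 214, 265 and 534 UMIs there, 100, 146 and 270 were of Notch3, a gene of the rule. In the whole cluster the list summed to 4353, 4215 and 5010 CPM, and in the cluster neighbours to 5062, 4087 and 5061 CPM. Both were lowest at day 7, so the order among the members did not hold for the cells around them.

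Kitl, the ligand of the receptor KIT, gave 2, 12 and 18 UMIs (2.48, 0.49 to 5.86, and 2.14, 0.25 to 5.46), but in the whole cluster it gave 11, 16 and 39 and the ratios were 0.46 and 0.62. Rgs4, a regulator of G protein signalling, gave 15, 41 and 57 UMIs (1.51, 0.64 to 2.49, and 1.05, 0.23 to 2.00), and in the cluster 52, 73 and 147 (0.43 and 0.32). For both genes the naïve members were lower than their cluster neighbours, so the difference depends on where the Myh11 line is drawn. The remaining genes among the 10 that stood highest at both times were Ankrd12 (5, 17 and 34 UMIs), Ccnt1 (3, 10 and 27), which encodes cyclin T1, and Zranb1 (3, 10 and 21). Pleiotrophin (Ptn), a secreted growth factor, gave 3, 9 and 35 UMIs.

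At day 14 the tissue inhibitor of metalloproteinases Timp3 (chr10:86300372-86349506, plus strand) was higher, on many counts. It gave 81, 111 and 348 UMIs (1257, 1817 and 2982 CPM), with log2 ratios of 0.53 (0.11 to 0.96) at day 7 and 1.24 (0.89 to 1.61) at day 14, and was carried by 90.0%, 88.9% and 97.8% of members. The whole cluster gave 1.20 at day 14, while smooth muscle gave 0.17 and endothelial cells 0.19. The difference between these cell types was not tested. Stat3, the transcription factor downstream of interleukin 6 family cytokines, gave 10, 12 and 41 UMIs (1.15, 0.16 to 2.34, at day 14), and the chemokine Cxcl12 gave 10, 12 and 40 (1.12, 0.12 to 2.31).

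Lower at day 14 but not at day 7 were 2 genes linked to signalling. Errfi1, a feedback inhibitor of the EGF receptor, gave 91, 88 and 64 UMIs (1412, 1441 and 548 CPM), with log2 ratios of 0.03 (-0.41 to 0.47) and -1.36 (-1.85 to -0.89). In smooth muscle the day 14 ratio was -0.06. Npy1r, the neuropeptide Y receptor Y1, gave 32, 45 and 27 UMIs (0.56, -0.12 to 1.27, and -1.09, -1.90 to -0.32), with -1.31 in the whole cluster and -0.19 in smooth muscle, but the sign of the day 14 ratio turned under stricter cell filters.

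The sum of interferon-response genes was highest in the naïve library. The 33 listed genes found in the files summed to 10179 CPM (9415 to 10989), 8447 (7734 to 9209) and 6238 (5793 to 6708). Of its 656, 516 and 728 UMIs, 240, 127 and 212 were of Ifitm3, 159, 104 and 249 of Ifitm1 and 66, 62 and 86 of Ifitm2. These genes held most of the sum, so its order need not hold for the other genes listed. Ifitm3, a membrane protein that restricts viral entry, gave 240, 127 and 212 UMIs (3724, 2079 and 1817 CPM), with log2 ratios of -0.84 (-1.16 to -0.52) and -1.03 (-1.31 to -0.76). Ifitm1 differed less, at -0.53 (-0.91 to -0.17) and -0.21 (-0.50 to 0.09). Isg15, a ubiquitin-like modifier, gave 12, 14 and 6 UMIs and Bst2 (tetherin) gave 16, 11 and 10. Endothelial cells were also highest when naïve, at 9927, 7195 and 6971 CPM. Of 9 interferon genes compared 2 were higher and 0 lower at day 7, beside 6.98% and 5.62% of all genes, and 0 were higher and 4 lower at day 14, beside 6.18% and 4.45%. Of the day 7 pair Iigp1 had 24 of its 30 UMIs in 1 cell.

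Other genes lower at both times stood on fewer counts. Ly6e, a membrane-anchored protein, gave 20, 7 and 5 UMIs, Ubl5, a ubiquitin-like protein, 21, 5 and 15, Fibin 18, 5 and 11, Antxr1, an anthrax toxin receptor, 16, 5 and 12, and Ndufa2, a subunit of respiratory complex I, 22, 9 and 12. Foxc1, a forkhead factor of mural cells, gave 27, 12 and 22 (-1.07 and -1.13), but without the members outside the cluster the ratios were -0.75 and -0.64. Col1a1 gave 20, 0 and 10 UMIs, of which 17 naïve UMIs were in 1 cell, so that its ratio describes that cell. Fabp7, Gpm6b, Apod and Dcn likewise differed through the single glia-like and fibroblast-like members.

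Of 30 pericyte genes compared outside the rule, Rgs4 was the only gene higher at either time, Higd1b (37, 16 and 42 UMIs) and Foxc1 were lower at day 7, and Foxc1 and Aspn (47, 35 and 38 UMIs) were lower at day 14. Of all genes 6.98% were higher and 5.62% lower at day 7, and 6.18% and 4.45% at day 14. Counts this small are close to those shares and are not read as a result about pericyte genes. The same shares stand beside the other counts of this paragraph. Of the 16 contractile and 5 PDGF pathway genes compared 0 differed 2-fold at either time. Of 13 fibrillar matrix and scar genes compared, 0 were higher and 1 lower at day 7, beside 6.98% and 5.62% of all genes, and 2 were higher and 3 lower at day 14, beside 6.18% and 4.45%. Those lower at day 14 were Col1a1, in which 1 naïve cell held most of the counts, and 2 other collagen genes. One of these, Col3a1, had a ratio of -1.05, but -0.84 without the members outside the cluster and -0.48 over the whole cluster. Of 30 cell cycle genes 17 had a UMI and 3 were compared, with 1 higher at day 14. For MHC class I, 0 of the 4 genes compared differed at either time.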

How the data were processed

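Single cell suspensions of L3 and L4 DRGs from 3 libraries were sequenced by the authors, and per the labels reads were counted with Cell Ranger 3.0.2 against mm10. The deposited matrices hold raw UMI counts for 31053 genes per barcode, 22343246 to 36550911 per library. Introns and strand settings are not given in the sources used here. Pericytes were chosen by the rule stated in the report, and comparison cells by like rules: smooth muscle had at least 1 Myh11 and 3 Acta2 UMIs, endothelial cells at least 2 of Pecam1 and Cdh5 with Cldn5, Flt1 or Egfl7, fibroblasts at least 2 of Lum and Pdgfra with Dcn, and cells with myelin genes at least 2 of Mag and Prx. Counts were summed over cells of a library and scaled to 1000000 (CPM). Genes with at least 30 UMIs over the 3 libraries were compared as log2 ratios with 5 CPM added, and 2-fold was the threshold. The genes named are the 10 highest and lowest at both times, the 5 highest and lowest in each comparison and the leading genes between cell types, plus examples from 31 lists. Some genes that meet this rule are not reported here. Members and lists were chosen with earlier results of these data known, and the heat-shock genes were split from a wider list by protein class after values were seen. Intervals are exact (Clopper-Pearson for shares, Poisson for counts, conditional binomial for ratios). Clusters came from scanpy 1.11.5 (2000 variable genes, 30 components, 15 neighbours, Leiden resolution 1). Doublets were called with Scrublet and not removed. Scripts were tested on simulated data. Python 3.11.15, R 4.3.3 and edgeR 4.0.16 (TMM factors only) were used.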

Additional observations from a re-analysis of the deposited data

Results flagged for a closer look

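Col1a1 at day 14 had a log2 ratio over naïve of -1.80 in pericytes and of 1.45 in endothelial cells, opposite directions in 2 cell types. The difference was not tested, and 17 of the 20 naïve pericyte UMIs were in 1 cell. Iigp1 at day 7 had a log2 ratio of 1.78 in pericytes and of -2.32 in fibroblasts, also opposite and not tested, with 24 of its 30 day 7 pericyte UMIs in 1 cell.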

How the results depend on the processing

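No paired analysis was possible because the 3 conditions hold a single library each. Of 74 gene ratios recomputed under 12 alternatives, 67 never turned direction. The ratios were chosen for being at least 2-fold, and some alternatives could not turn a ratio. Leaving out Scrublet calls removed 0 pericytes, and dropping the filter on low counts left each ratio as it was. A smaller pseudocount cannot change a sign either, so the 67 says little about stability. With at least 1000 genes and at most 10% mitochondrial counts, the pericyte shares were 1.56%, 1.39% and 0.880%, and 28 genes were higher and 36 lower at day 7, and 37 and 45 at day 14, of 671 compared. There the ratios of Ly6e at day 7 (0.026), Fabp7 (-0.45), Apod (-0.23) and Npy1r (0.10) at day 14 turned. Thinned to 2000 UMIs per cell, the shares were 0.429%, 0.827% and 1.36%, the opposite order, and 57 genes were lower at day 7, and Col1a1 (4.36), Fabp7 (-1.14) and Npy1r (0.25) at day 14 and Dcn at day 7 (2.65) turned. With no filter on low counts 2292 genes were higher and 2627 lower at day 7, and 3010 and 2095 at day 14. Taking all cells of the pericyte cluster, an alternative chosen after seeing the data, gave shares of 1.78%, 1.86% and 2.61%, and of 3558 genes 184 were higher and 181 lower at day 7, and 175 and 133 at day 14, with Col1a1 at day 7 (0.83) and Apod at day 14 (-0.082) turned. Apod at day 14 also turned with at least 4 of the rule genes (-0.27) and without the members outside the cluster (-0.36). A pericyte had a median of 1736 to 2440 UMIs, which limits genes of low level.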
